A study of Mus musculus with 40 samples.

Results

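A set of 8 genes that the cytokines IL-17 and IL-22 are known to induce in gut epithelium was followed through colonisation of mice with Tritrichomonas musculis (T.mu), a flagellated protozoan of the mouse gut. They were chosen by symbol, 8 of the 45792 mouse genes in the table, and each symbol matched 1 Ensembl gene. They are Duox2 and Duoxa2, the serum amyloid A genes Saa1, Saa2 and Saa3, the antimicrobial effectors Lcn2 and Nos2, and the regulator Nfkbiz. Mice that had received 2000000 sorted T.mu cells were compared with mice that had received none, at 3, 14 and 48 days, in 2 preparations, colonic epithelial cells and total colonic tissue. Each of the 12 groups held 3 libraries at days 3 and 14 and 4 at day 48, 40 in all. The labels give neither the strain, sex nor age of the mice, nor how the epithelial cells were isolated. They number the libraries of each group, and this number was read as the litter. Libraries of the same day and number were taken as litter pairs, and the libraries of a group are listed below in this order.

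IL-17 is made mainly by T cells and innate lymphoid cells and signals through a receptor of Il17ra and Il17rc to the adaptor Traf3ip2 and on to NF-kB. IL-22 signals through Il22ra1 and Il10rb to the transcription factor Stat3. In the colon both act on epithelial cells and raise secreted antimicrobial proteins, mucins and oxidases at the surface. Nfkbiz encodes IkB-zeta, a nuclear cofactor of NF-kB through which a part of the response to IL-17 runs.

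A level is given in CPM, the gene's counts relative to the mouse counts of the library, with library sizes adjusted by the TMM method over all 40 libraries. Libraries were 3′ digital gene expression libraries, in which reads come from transcript ends. An epithelial library held between 170291 and 2866306 mouse counts and a library of total tissue between 220717 and 6756616. Depth was uneven between the arms: 2 of 3 control libraries of total tissue at day 14, 2 of 4 T.mu libraries of total tissue at day 48, and 1 of 3 T.mu and 2 of 3 control libraries of epithelium at day 3 held fewer than 400000 counts. In bulk libraries, fewer cells of a type and less RNA per cell cannot be told apart. The table's non-mouse entry took a higher share of the counts in every T.mu library than in any control library of its comparison, but 1 control of total tissue at day 48 (replicate 2) stood at 969 CPM, against 5.11 to 27.5 CPM in the other 3, and 1 control of total tissue at day 14 (replicate 1) at 512 CPM, against 72.5 and 9.38 CPM in the other 2. Without the first of these the day 48 call of Nfkbiz below was kept (edgeR adjusted p = 0.0325), and without the second its day 14 call ended (adjusted p = 0.103). Of the 8 genes, 4 passed the filter on low counts in epithelium (Duox2, Duoxa2, Saa1 and Nfkbiz) and 7 in total tissue (all but Lcn2). The others are described by their counts.

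The members sit in few places of the genome (GRCm38). Duox2 (chr2:122279247-122298449, minus strand) and Duoxa2 (chr2:122298900-122302885, plus strand) lie head to head with 450 bases between their starts. Saa3 (chr7:46711998-46715700, minus strand), Saa1 (chr7:46740497-46742980, minus strand) and Saa2 (chr7:46751790-46754313, plus strand) lie within 42316 bases. Lcn2 is at chr2:32384633-32388252, Nos2 at chr11:78920787-78960254 and Nfkbiz at chr16:55811375-55838899. The bases before the start of Duoxa2 and of the serum amyloid A genes are shown because Duoxa2 and Saa3 were the members with the clearest changes and Saa1 and Saa2 are near copies of each other. They are from RefSeq (GRCm38.p6), 5′ to 3′ on the strand of the gene, and end just before the gene's start. Capitals mark matches to TTGCNNAA, a simplified C/EBP motif.
Duoxa2 (chr2:122298650-122298899, plus strand): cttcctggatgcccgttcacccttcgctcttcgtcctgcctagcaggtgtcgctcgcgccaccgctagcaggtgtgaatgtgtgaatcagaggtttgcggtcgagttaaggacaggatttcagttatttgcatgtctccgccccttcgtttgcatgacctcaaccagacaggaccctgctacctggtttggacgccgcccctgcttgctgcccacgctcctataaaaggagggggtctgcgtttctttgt
Saa1 (chr7:46742981-46743230, minus strand): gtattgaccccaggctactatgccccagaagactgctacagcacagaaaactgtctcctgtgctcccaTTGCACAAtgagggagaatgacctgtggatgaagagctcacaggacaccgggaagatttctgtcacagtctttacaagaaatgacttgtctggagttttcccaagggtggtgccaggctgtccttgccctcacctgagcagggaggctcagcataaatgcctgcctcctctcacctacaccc
Saa2 (chr7:46751583-46751789, plus strand): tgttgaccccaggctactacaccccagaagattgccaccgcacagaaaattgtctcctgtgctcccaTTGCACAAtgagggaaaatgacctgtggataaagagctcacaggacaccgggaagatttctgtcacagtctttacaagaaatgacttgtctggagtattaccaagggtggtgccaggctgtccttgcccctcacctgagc
Saa3 (chr7:46715701-46715926, minus strand): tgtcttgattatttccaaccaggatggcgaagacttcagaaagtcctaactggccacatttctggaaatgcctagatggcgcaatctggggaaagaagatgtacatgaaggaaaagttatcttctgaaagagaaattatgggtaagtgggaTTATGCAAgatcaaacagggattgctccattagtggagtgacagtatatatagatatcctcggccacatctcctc

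Each of the 6 members with an entry in the promoter table was searched on both strands over 250 bases before the RefSeq start. TTGCNNAA occurred once in Saa1, Saa2, Saa3 and Lcn2 and 0 times in Duox2 and Duoxa2, and 9.56% of all 32851 promoters held it. The STAT motif TTCNNNGAA, which 7.02% of promoters held, had 0 matches in these windows. Saa1 and Saa2 shared 238 of 251 aligned positions of these windows (94.8%), and Saa1 and Saa3 52.5%. The longest transcripts of Saa1 and Saa2 shared 87.3% of aligned positions, and those of Saa1 and Saa3 25.5%. Over the last 200 bases, nearest the ends that 3′ libraries read, Saa1 and Saa2 shared 90.1%, and Saa1 and Saa3 47.0%. Of 603 words of 50 bases in the Saa2 transcript, 51 (8.46%) also occur in that of Saa1, so a part of the reads may have been assigned to either gene, and the values of this pair are uncertain.

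**Figure D1:**
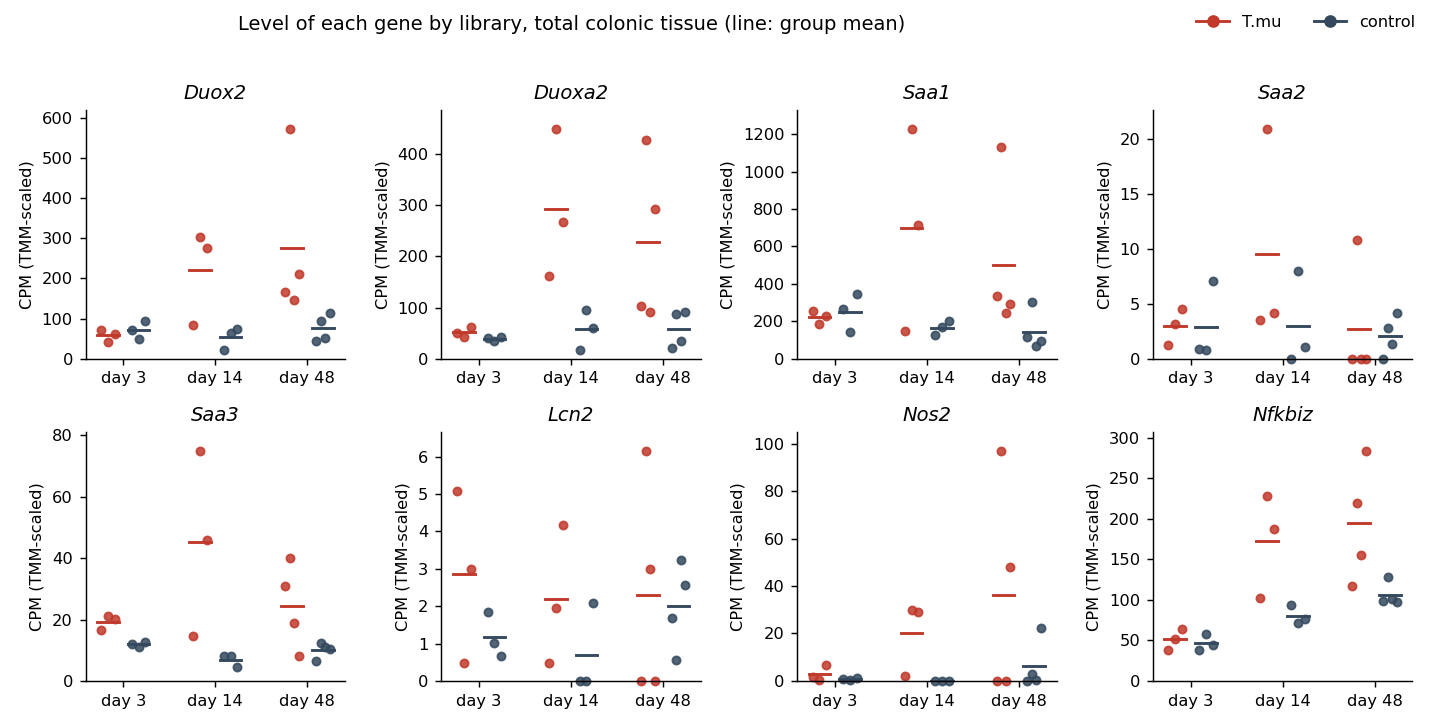
Level of each of the 8 genes in total colonic tissue, in CPM on a linear axis from 0, with 1 point per library, T.mu in red left of control in dark blue at each day, and a line at the group mean. At days 14 and 48 the T.mu points of Duox2 and Duoxa2 lie above every control point, while at day 3 only Saa3 separates the groups.

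Duox2 encodes the dual oxidase that releases hydrogen peroxide at the apical surface, and Duoxa2 its maturation factor, needed for the oxidase to reach that surface. In total tissue the T.mu libraries of both genes lay above the controls at days 14 and 48 and within or near their range at day 3. Duoxa2 had 162, 449 and 267 CPM in T.mu tissue at day 14, against 16.5, 95.5 and 60.7 CPM in control tissue. At day 48 it had 102, 427, 91.6 and 292 CPM in T.mu tissue, against 20.3, 87.3, 34.0 and 90.6 CPM in control tissue. The groups did not overlap on either day, though the nearest pair at day 48 was 91.6 and 90.6 CPM. The log2 fold change was 2.40 ± 0.74 at day 14 and 1.97 ± 0.58 at day 48 (± standard error), and neither passed over all 11696 genes (edgeR quasi-likelihood test, Benjamini-Hochberg adjusted p = 0.223 and 0.127). Over the 3 days together the mean log2 fold change was 1.58 ± 0.38 with 10 of 10 litter pairs higher, and it narrowly missed the threshold of 0.05 (adjusted p = 0.0520; 0.0173 with litter as a block).

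Duox2 moved with its partner. It had 83.6, 303 and 276 CPM in T.mu tissue at day 14, against 21.98, 63.6 and 74.7 CPM in control tissue, and 167, 573, 146 and 212 CPM in T.mu tissue at day 48, against 44.4, 94.2, 52.3 and 114 CPM in control tissue. On both days the lowest T.mu library lay above the highest control. The log2 fold change was 1.93 ± 0.67 at day 14 (adjusted p = 0.313) and 1.88 ± 0.53 at day 48 (adjusted p = 0.104, edgeR), neither of them past the threshold. DESeq2 called both Duox2 and Duoxa2 on both days. At day 3 it averaged 58.5 ± 16.1 CPM in T.mu tissue and 71.2 ± 22.5 CPM in control tissue (SD, n = 3 each).

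In epithelial cells Duox2 differed little between the arms, with 87.4 ± 27.3 CPM in T.mu epithelium and 74.8 ± 16.8 CPM in control epithelium (SD, n = 10 each over the days; mean log2 fold change 0.15 ± 0.17, edgeR adjusted p = 0.685). Duoxa2 was higher in T.mu epithelium in 10 of 10 litter pairs. Its counts summed to 29 in T.mu epithelium and 0 in control epithelium at day 3, to 54 and 26 at day 14, and to 83 and 16 at day 48. At day 3 the ratio, T.mu over control, was 4.53 with the control group set at a floor of 3 counts. At day 14 the T.mu libraries had 9.86, 13.2 and 21.8 CPM and the control libraries 3.82, 2.00 and 19.4 CPM, so that 1 control reached the T.mu range. At day 48 the T.mu libraries had 11.9, 9.34, 19.0 and 5.85 CPM, all above the control libraries at 0.680, 4.63, 4.36 and 2.82 CPM.

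The mean over days of Duoxa2 in epithelium passed the test (adjusted p = 0.00612, edgeR), which 3.39% of the 10119 genes tested did (2.47% higher), and it was the only one of the 4 tested members called in epithelium. Its fitted log2 fold change of 3.12 rests in part on the control group at 0 and is no measure of size. Summed over all days, the counts relative to library size were 2.83 times higher with T.mu (95% counting interval 2.01 to 4.07). Without day 3, where 2 of the 3 control libraries were shallow, the mean log2 fold change was 1.31 and the call ended (adjusted p = 0.167). On single days 0 of 4 members passed in epithelium, where 0.356%, 0.504% and 0.287% of genes did at days 3, 14 and 48, and 1, 1 and 2 members had an unadjusted p under 0.05, as 11.1%, 10.3% and 4.58% of genes did. On each day 1 tested member had T.mu libraries wholly above the controls (Duoxa2, Nfkbiz and Duoxa2), as 8.5%, 9.76% and 2.04% of genes had. Duoxa2 passed the filter on low counts in epithelium mainly through T.mu libraries, so its call and its separation are not independent of that filter. Of 7 epithelial marker genes, 4, among them Krt8 (log2 0.59, adjusted p = 0.00852), were also higher in T.mu epithelium over the days, and their part in the result was not tested.

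The proportion of the pair's counts also differed between the preparations. The counts of Duoxa2 were 119% of those of Duox2 in T.mu tissue and 68.9% in control tissue, but 15.1% in T.mu epithelium and 5.75% in control epithelium. Library by library the share ran from 45.7% to 194% in total tissue and from 0% to 24.7% in epithelium, with no overlap. The 3′ end of Duoxa2 overlaps the opposite-strand gene Duoxa1, a maturation factor of the related oxidase Duox1, by 695 bases, and the strand of counting is not given in the sources used here. Duoxa1 was low throughout, with 52 counts in T.mu tissue and 2 in control tissue at day 14.

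**Figure D2:**
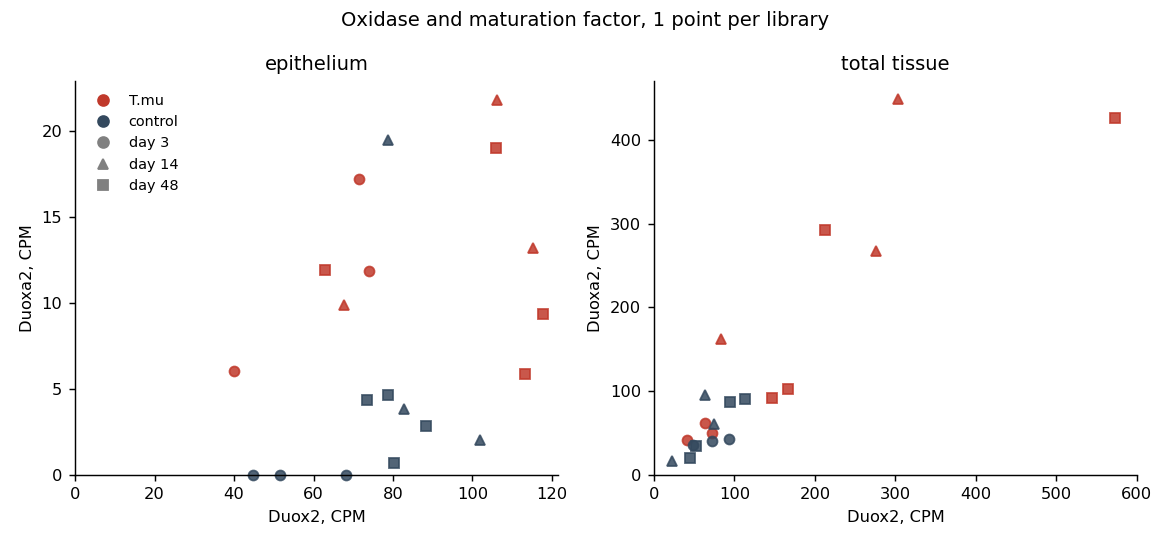
Level of Duoxa2 against that of Duox2, in CPM on linear axes, with 1 point per library, T.mu in red and control in dark blue, and the day as the marker shape; epithelium on the left and total tissue on the right. In total tissue the T.mu libraries of days 14 and 48 reach 449 CPM of Duoxa2 and 573 CPM of Duox2, while epithelial libraries reach 118 CPM of Duox2 at no more than 21.8 CPM of Duoxa2.

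The serum amyloid A genes encode small secreted lipid- and retinol-binding proteins of the acute phase response, and Saa1 and Saa3 are induced in colonic epithelium by contact with microbes. Saa3 gave the clearest response of all 8 genes in total tissue. At day 14 it had 14.5, 75.0 and 46.0 CPM in T.mu tissue, against 8.24, 7.96 and 4.67 CPM in control tissue. All T.mu libraries lay above all controls, and the log2 fold change was 2.93 ± 0.57 (7.64-fold, adjusted p = 0.00150, edgeR). The 3 control libraries rest on 3, 2 and 9 counts, so the summed counts, 237 and 14, give a ratio of 6.39 with a 95% counting interval of 3.74 to 11.9. The call ended without T.mu replicate 2 (adjusted p = 0.142) or control replicate 3 (0.0741).

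Saa3 was higher at the other days by less. At day 3 it had 16.5, 21.3 and 20.2 CPM in T.mu tissue and 12.05, 11.1 and 12.7 CPM in control tissue, with no overlap, as 7.05% of genes had, but no call (log2 0.69 ± 0.40, adjusted p = 0.999). The 9 macrophage markers also separated the groups at day 3, with sums of 253 to 343 CPM in T.mu tissue and 100.3 to 192 CPM in control tissue, and their part in the result was not tested. At day 48 it had 31.0, 40.05, 18.8 and 8.01 CPM in T.mu tissue and 6.34, 12.5, 11.03 and 10.6 CPM in control tissue, and the T.mu library with 2 counts fell inside the control range (log2 1.31 ± 0.40, adjusted p = 0.0851). Its mean over days rose by 1.64 ± 0.27 on the log2 scale (adjusted p = 2.56e-05, edgeR), with 9 of 10 litter pairs higher, and the call held whichever of the 20 libraries was left out. Without day 14 it was 1.00 and did not pass (adjusted p = 0.0711). In epithelium Saa3 was close to the floor, with 23 counts over 10 T.mu libraries and 15 over 10 control libraries, and was not tested there.

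Saa1 varied widely between T.mu mice. In total tissue at day 14 it had 146, 1229 and 714 CPM with T.mu, against 126, 167 and 201 CPM in controls, and at day 48 it had 334, 1129, 242 and 292 CPM with T.mu, against 117, 304, 66.4 and 93.7 CPM in controls. The groups overlapped on both days, since 1 T.mu library of day 14 stayed within the control range and 1 control of day 48 reached the T.mu range. The log2 fold change was 2.07 ± 0.80 at day 14 (adjusted p = 0.402) and 1.81 ± 0.66 at day 48 (adjusted p = 0.230, edgeR), and neither passed. In epithelium at day 14 the order was the reverse, with 348, 295 and 322 CPM with T.mu and 368, 368 and 361 CPM in controls, a log2 fold change of -0.18 ± 0.26 that did not pass (adjusted p = 0.875). Over the days epithelial Saa1 averaged 259 ± 62.3 CPM with T.mu and 261 ± 109 CPM in controls (SD, n = 10 each), a mean log2 fold change of -0.04 ± 0.15 (adjusted p = 0.921).

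Saa2 was counted at 1.39% of Saa1 in T.mu tissue and 1.37% in control tissue, and at 1.33% in T.mu epithelium and 1.01% in control epithelium. In total tissue it had 0 to 20.9 CPM in T.mu libraries and 0 to 7.96 CPM in control libraries, and its summed counts at day 14 were 60 with T.mu, of which 43 came from 1 library, and 4 in controls. It did not pass on any day (edgeR adjusted p = 0.613 or above).

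Lcn2 encodes lipocalin-2, which binds bacterial siderophores and is a common stool marker of colonic inflammation. It was too low to be tested in either preparation. It had 34 counts over the 10 T.mu libraries of total tissue and 57 over the 10 control libraries, at 2.43 ± 2.22 CPM with T.mu and 1.37 ± 1.09 CPM in controls (SD). In epithelium it had 4 counts with T.mu and 14 in controls, and 8 of 10 libraries of each arm held 0. The ratio of summed counts, T.mu over control, was 1.10 in total tissue (95% counting interval 0.698 to 1.71), where no difference was detectable at this depth. In epithelium it was 0.205 (0.0491 to 0.652), and all 14 control counts came from 2 libraries of day 48. That interval takes each count as independent and leaves out the spread between libraries.

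Nos2 encodes inducible nitric oxide synthase. In total tissue at day 14 it had 9, 61 and 14 counts in T.mu libraries (2.14, 29.7 and 29.2 CPM) and 0 counts in each of the 3 control libraries. With the control group set at a floor of 3 counts, the summed counts put it 10.6-fold higher with T.mu. Of those 3 controls, 2 were shallow. Nos2 did not pass the test (edgeR adjusted p = 0.658). At day 48 it had 0, 97.0, 0 and 48.0 CPM with T.mu, against 0, 2.78, 0.538 and 22.1 CPM in controls, so libraries of both arms held 0 and the groups overlapped (adjusted p = 0.508). In epithelium it was at 2.01 ± 2.03 CPM with T.mu and 2.27 ± 1.87 CPM in controls (SD, n = 10 each).

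Nfkbiz had a higher mean with T.mu at both later days in both preparations, and in total tissue it passed the test on both. In total tissue at day 14 it had 103, 228 and 188 CPM with T.mu, against 93.4, 71.6 and 76.3 CPM in controls, with no overlap (2.16-fold, log2 1.11 ± 0.28, adjusted p = 0.0389, edgeR). At day 48 it had 118, 220, 156 and 284 CPM with T.mu, against 99.3, 128, 101 and 96.8 CPM in controls, where 1 T.mu library lay inside the control range (1.82-fold, log2 0.86 ± 0.23, adjusted p = 0.0352). Both daily calls were fragile. The day 14 call was kept in 1 of 6 fits that left out 1 library, the one without T.mu replicate 1 (adjusted p up to 0.362 in the others), and the day 48 call in 3 of 8, which left out T.mu replicate 1, T.mu replicate 3 and control replicate 2 (up to 0.181). The mean over days rose by 0.69 ± 0.15 (adjusted p = 0.00330) with 8 of 10 litter pairs higher, and this call held whichever of the 20 libraries was left out but not without day 14 (0.225) or without day 48 (0.159). At day 3 it averaged 51.5 ± 13.1 CPM with T.mu and 47.1 ± 10.1 CPM in controls (SD, n = 3 each).

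In epithelium Nfkbiz had 59.8, 44.4 and 57.8 CPM with T.mu at day 14, against 30.6, 32.9 and 34.3 CPM in controls. At day 48 it had 52.1, 99.98, 74.9 and 139 CPM with T.mu, against 49.6, 62.0, 47.4 and 47.9 CPM in controls. The groups were separate at day 14 and overlapped at day 48. The log2 fold changes of 0.73 ± 0.34 and 0.80 ± 0.27 were close to those in total tissue, but did not pass (adjusted p = 0.448 and 0.615, edgeR), nor did the mean over days (0.58 ± 0.20, adjusted p = 0.0905).

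**Figure D3:**
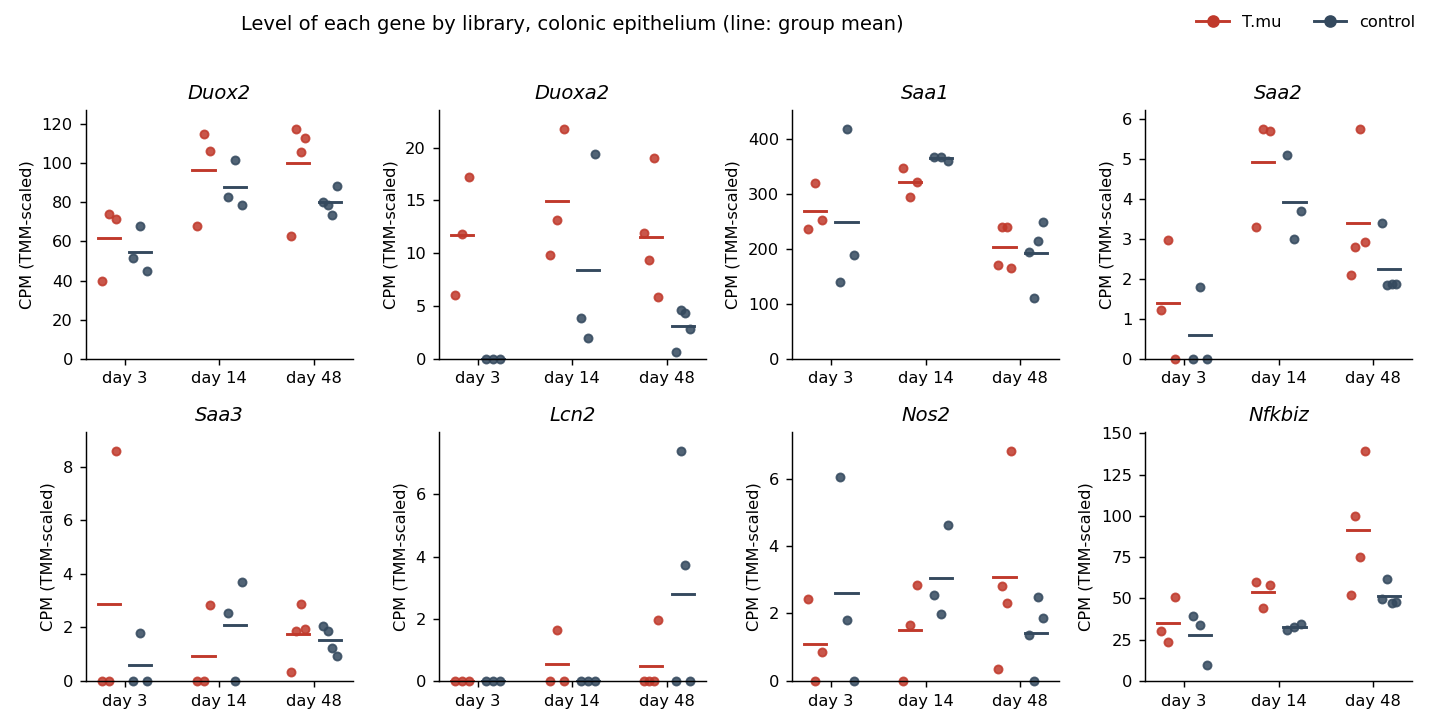
Level of each of the 8 genes in colonic epithelium, in CPM on a linear axis from 0, with 1 point per library, T.mu in red left of control in dark blue at each day, and a line at the group mean. Duoxa2 at days 3 and 48 and Nfkbiz at day 14 have all T.mu points above all control points, Saa1 at day 14 has them below, Duox2 overlaps at every day, and Saa2, Saa3, Lcn2 and Nos2 reach at most 8.60 CPM.

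Taking the tested members of total tissue together, 0 of 7 were called at day 3, where 0.479% of all genes were, and 0 of 7 had an unadjusted p under 0.05, as 5.18% had; DESeq2 and limma called 0 there too. At day 14 Saa3 and Nfkbiz, 2 of 7, were called higher, as 0.804% of genes were (0.949% in either direction). At day 48 Nfkbiz, 1 of 7, was called higher, as 1% of genes were (1.8% in either direction), and over the mean of the days Saa3 and Nfkbiz, 2 of 7, as 1.5% were (1.9% in either direction). At day 14, 5 of 7 had T.mu libraries wholly above the controls (Duox2, Duoxa2, Saa3, Nos2 and Nfkbiz), which 8.49% of all genes had, and 2 of 7 at day 48 (Duox2 and Duoxa2), which 2.64% had. Nos2 passed the filter on low counts mainly through T.mu libraries, so its separation at day 14 is not independent of that filter. The median log2 fold change of the 7 was 0.11 at day 3, 2.40 at day 14 and 1.81 at day 48, beside -0.01, 0.06 and -0.11 over all genes tested. In epithelium the median of the 4 tested members was 0.12, 0.43 and 0.55, beside 0.07, 0.01 and 0.01.

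**Figure D4:**
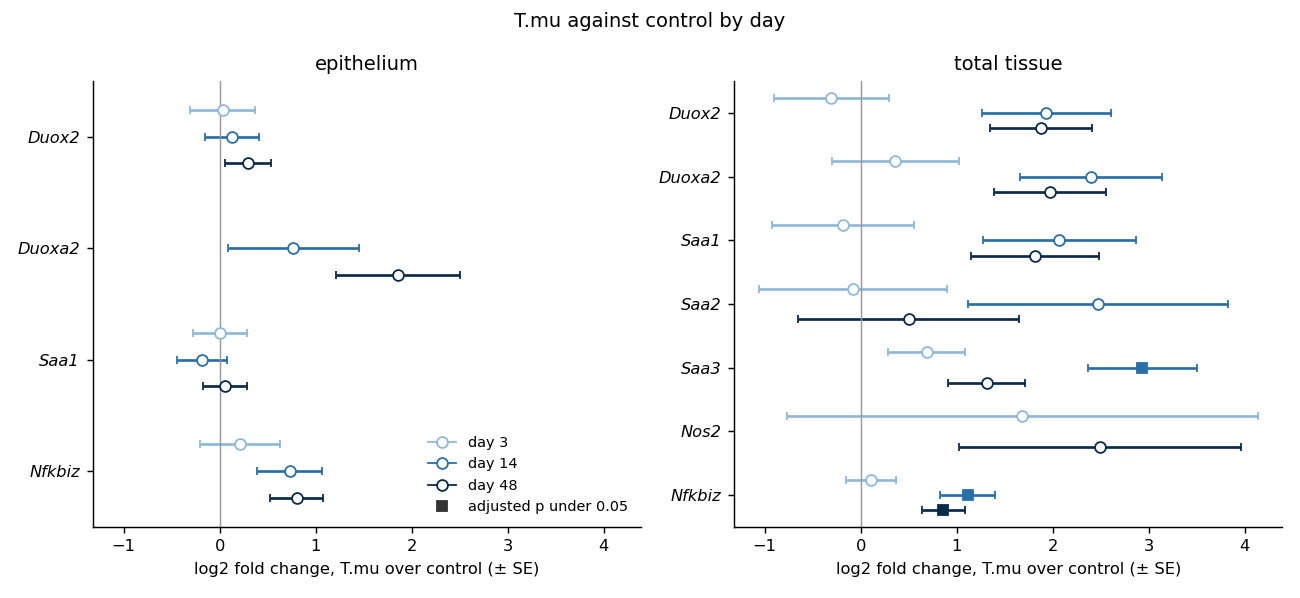
Log2 fold change of T.mu over control with its standard error, by gene and day, in epithelium on the left and total tissue on the right; filled squares passed an adjusted p of 0.05 and open circles did not. Duoxa2 at day 3 in epithelium and Nos2 at day 14 in total tissue are left out because all their controls had 0 counts, and genes that were not tested are not drawn. In total tissue the day 14 and day 48 values of Duox2, Duoxa2, Saa1, Saa3 and Nfkbiz lie above 0 and those of day 3 between -0.31 and 0.69.

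Whether these responses differed between days or between preparations was tested directly. In total tissue 0 of 7 members had a T.mu effect that differed between days (edgeR, 2 degrees of freedom, adjusted p = 0.352 or above; 3 with an unadjusted p under 0.05), and 0.0684% of all genes did. In epithelium 0 of 4 did (1 with an unadjusted p under 0.05), and 0% of all genes. The effect over the days in epithelium was smaller than in total tissue by 0.99 ± 0.39 on the log2 scale for Duox2 (adjusted p = 0.217; 0.0389 with litter within day as a block) and by 1.24 ± 0.46 for Saa1 (0.188; not called with the block). For Nos2 the adjusted p was 0.259, and 0.0345 with the block, where Duox2 and Nos2, 2 of 7 members, were called. Nos2 passed the filter on low counts mainly through T.mu tissue, so this call is not independent of that filter. It also rests in part on control tissue of day 14, where all 3 libraries had 0 counts of Nos2. Without the block 0 of 7 members passed, beside 0.752% of all genes, and 3 had an unadjusted p under 0.05, as 14.9% of genes had. On single days 0 of 7 passed as well, beside 0.0338%, 0% and 0.0338% of genes on days 3, 14 and 48, with 0, 4 and 2 members at an unadjusted p under 0.05, beside 10.7%, 7.12% and 9.3% of genes. DESeq2 and limma also called 0 of 7 on single days.

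Among control mice the members fell into 2 kinds. Duox2 was at 74.8 ± 16.8 CPM in epithelium and 67.8 ± 27.5 CPM in total tissue, and Saa1 at 261 ± 109 CPM in epithelium and 183 ± 93.8 CPM in total tissue (SD, n = 10 each). Neither differed past the threshold (log2 0.12 ± 0.28, adjusted p = 0.746, and 0.52 ± 0.33, adjusted p = 0.190, edgeR; Saa1 passed with RLE scaling at 0.77, adjusted p = 0.0465, with DESeq2 at 0.76, adjusted p = 0.0254, and without control tissue replicate 2 of day 48 at 0.74, adjusted p = 0.0471). Duoxa2 was at 3.77 ± 5.80 CPM in epithelium and 52.3 ± 29.5 CPM in total tissue, 13.9-fold lower by the means and lower in 10 of 10 litter pairs (adjusted p = 1.11e-06). Saa3 was at 1.41 ± 1.22 CPM in epithelium and 9.72 ± 2.76 CPM in total tissue, with no overlap (log2 -2.60 ± 0.55, adjusted p = 3.74e-05). Saa3 passed the filter on low counts mainly through total tissue, so its call and its separation here are not independent of that filter. Nfkbiz was at 38.8 ± 14.1 CPM in epithelium and 80.7 ± 28.1 CPM in total tissue (log2 -0.99 ± 0.18, adjusted p = 3.68e-06).

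These 3 of 7 tested members were called in a comparison in which 52.8% of all genes were called and 29.7% of all genes were called lower, a share of 3 in 7 that is close to the background. The 3 calls held in each alternative run, among them each library or day left out. Lcn2, Saa2 and Nos2 averaged 1.11, 2.26 and 2.27 CPM in control epithelium and 1.37, 2.60 and 2.74 CPM in control tissue, and did not pass or were not tested. For Nos2 the fitted log2 fold change, epithelium over total tissue, was 1.79 (edgeR adjusted p = 0.386), and 2.53 with litter within day as a block (0.0444). This is opposite in direction to its mean CPM, which in control tissue rests mainly on 1 library at 22.1 CPM. The fitted values rest in part on control tissue of day 14, with 0 counts in all 3 libraries, and are no measure of size. Without day 14 the unblocked value was -0.0566. RLE scaling moved the median of all genes in this comparison by 0.25 on the log2 scale, and the 3 lower members stayed lower with it.

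**Figure D5:**
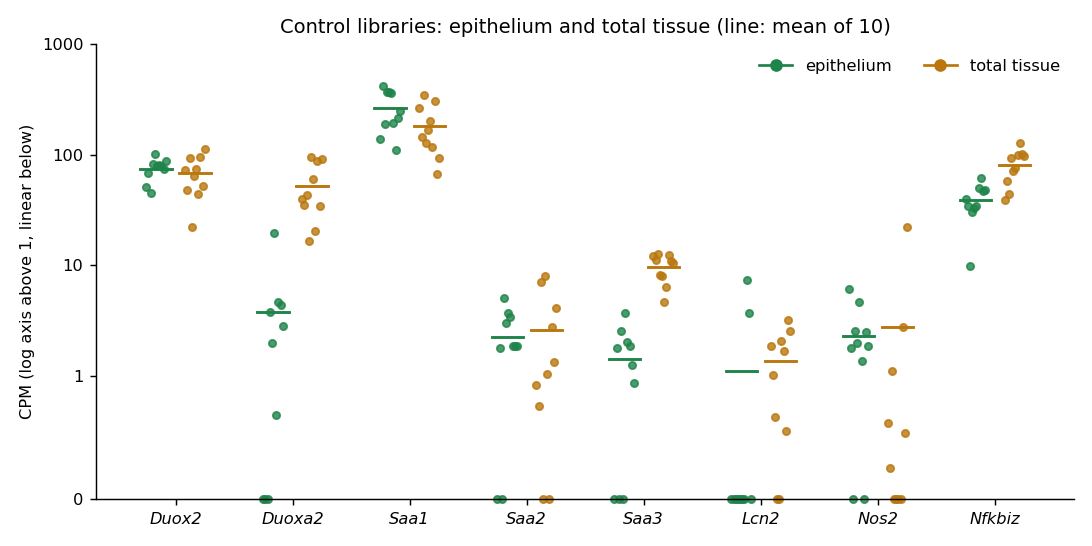
Level of each of the 8 genes in the 10 control libraries of epithelium in green, left of the 10 of total tissue in brown, in CPM on an axis that is logarithmic above 1 and linear below, with a line at the mean. Duoxa2, Saa3 and Nfkbiz lie lower in epithelium, and Duox2 and Saa1 at about the same level in both.

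Across all 12 groups, the highest mean of every member was in T.mu tissue: at day 14 for Duoxa2 (293 CPM), Saa1 (697), Saa2 (9.56) and Saa3 (45.2), at day 48 for Duox2 (275), Nos2 (36.3) and Nfkbiz (194), and at day 3 for Lcn2 (2.85). The lowest was in control epithelium of day 3 for Duoxa2, Saa2, Saa3 and Nfkbiz, with Lcn2 at 0 there too, in control tissue of day 14 for Duox2 and Nos2, and in control tissue of day 48 for Saa1. Neighbours in the order mostly did not separate. Of 11 neighbouring pairs of groups, all 11 overlapped in range for Duox2, Saa2 and Lcn2, 10 for Saa1, Saa3, Nos2 and Nfkbiz, and 8 for Duoxa2. For Duoxa2, T.mu tissue of day 48 lay above its lower neighbour, control tissue of day 48. Control tissue of day 3 lay above T.mu epithelium of day 14, and control epithelium of day 48 above that of day 3, at 0. Groups further apart in the order still overlapped. Control tissue of day 14 ran from 16.5 to 95.5 CPM, while T.mu tissue of day 48 began at 91.6 CPM. T.mu epithelium of day 14 reached 21.8 CPM.

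Some members varied together over the 20 libraries of total tissue and others did not. Among the highest values, Pearson's r of log2 CPM was 0.91 for Duox2 with Duoxa2, 0.81 for Duox2 with Saa1, 0.79 for Duoxa2 with Nos2, 0.77 for Saa1 with Saa3 and 0.73 for Duoxa2 with Nfkbiz. The lowest were 0.07 for Saa2 with Nfkbiz, 0.39 for Saa3 with Nfkbiz, 0.41 for Duox2 with Saa2 and 0.46 for Saa1 with Nfkbiz. Over the 20 libraries of epithelium r ran from -0.30 for Saa1 with Nfkbiz to 0.62 for Duox2 with Nfkbiz, and was 0.36 for Duox2 with Duoxa2. These are descriptions over libraries that share groups and differ in depth. Duox2 was the gene most like Duoxa2 among 11695, followed by Casp8 (0.91) and Slc5a8 (0.88). The genes most like Nos2 were Mep1b (0.86), the antimicrobial lectin gene Reg3g (0.84) and Upp1 (0.84). Those most like Nfkbiz were Sprr1a (0.86), Skil (0.84) and Retnlb (0.83), a goblet cell gene, and those most like Saa3 were Plac8 (0.81), Sectm1b (0.81) and Arl1 (0.79). For Saa2 they were Wrap53, Prdx5 and Ppme1 (0.79 to 0.81). In epithelium, where Duox2 and Saa1 were compared, Snapc1, Chrna1 and Msmo1 were most like Duox2 (0.81 each) and Nprl2, Mrps25 and Osbp most like Saa1 (0.74 to 0.77).

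Within a group the same mouse was often high for several members. At day 14 in total tissue, T.mu replicate 1 had the lowest value of all 8 genes, and replicate 2 the highest of Duox2, Duoxa2, Saa1, Saa2, Saa3, Nos2 and Nfkbiz. The non-mouse entry stood at 4053 CPM of all counts in replicate 1, 17136 in replicate 2 and 20194 in replicate 3. At day 48, T.mu replicate 2 had the highest Duox2, Duoxa2, Saa1, Saa2, Saa3, Lcn2 and Nos2, and its non-mouse entry was the lowest of the group, at 1425 CPM against 5966 to 13105 CPM in the other libraries. Depth differed as well, from 466381 to 3472490 mouse counts at day 14 and from 236155 to 1355659 at day 48 in these T.mu groups. The part of either in the members' levels was not tested.

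The cytokines that give the list its name were near or at 0. Of 7 ligand genes (Il17a, Il17f, Il22, Il23a, Il12b, Il1b and Il6), 0 could be tested. In total tissue Il17a had 0 counts in T.mu libraries at every day and 0, 0 and 4 counts in controls at days 3, 14 and 48. Il22 had 1, 0 and 2 counts with T.mu and 0, 0 and 4 in controls. Neither cytokine could be compared at this depth.

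Of 14 receptor and signalling genes, 12 were tested in total tissue and 1 was called with T.mu at day 14, as 0.949% of all genes were. Zc3h12a, which encodes the endonuclease Regnase-1, a feedback inhibitor of IL-17 signalling, was higher at day 14 (26.6 ± 12.3 CPM with T.mu and 2.35 ± 2.83 CPM in controls, SD, n = 3 each; log2 3.58 ± 0.79, adjusted p = 0.00621). Of 10 genes of the NF-kB family, 9 were tested and Nfkbia, the cytoplasmic inhibitor of NF-kB, was higher at day 14 (209 ± 29.9 CPM with T.mu and 88.9 ± 29.6 CPM in controls; log2 1.22 ± 0.25, adjusted p = 0.00278) and over the days (0.47 ± 0.13, adjusted p = 0.0432), as 1.9% of all genes were called over the days. The median log2 fold changes of these lists at day 14 were 0.10 and 0.27, beside 0.06 for all genes.

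Of 16 other epithelial targets of these cytokines, 0 of 10 tested passed in total tissue and 0 of 8 in epithelium. The antimicrobial lectin genes Reg3b and Reg3g had log2 fold changes of 2.21 ± 1.62 and 2.81 ± 1.79 at day 14 in total tissue (adjusted p = 0.769 and 0.713), and Pigr, the receptor that carries IgA across the epithelium, 0.73 ± 0.30 (0.429). These 3 were named after their values were seen. Of 13 further genes of the oxidase and nitric oxide system, 0 of 10 tested passed in total tissue, and in epithelium Gpx2, a glutathione peroxidase that removes hydrogen peroxide in gut epithelium, was the 1 of 6 that passed over the days (log2 0.63 ± 0.14, adjusted p = 0.00443). Saa4, the constitutive member of the serum amyloid A family, was not tested in either preparation.

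Between control epithelium and control tissue, 7 of 13 tested receptor and signalling genes were called, 6 of them lower in epithelium, in the comparison in which 52.8% of all genes were called and 29.7% called lower. The share of 7 in 13 is close to that background. The 6 lower genes included both receptor chains of IL-17, Il17ra (log2 -2.38, adjusted p = 6.32e-09) and Il17rc (-1.51, adjusted p = 4.51e-07), the IL-22 receptor Il22ra1 (-2.24, adjusted p = 5.16e-10) and Stat3 (-1.07, adjusted p = 1.00e-06). Of 8 tested NF-kB family genes, 5 were lower and 1 higher in epithelium. Of 10 tested other targets, 3 were higher, among them Pigr (1.42) and Il18 (1.97), and 2 lower, among them Muc13 (-1.36). Of 9 tested genes of the oxidase system, Gpx2 (1.82) and Nox1 (2.46) were higher and Arg2 (-2.20) lower.

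Markers of other cell types were read beside these values. In total tissue the 7 neutrophil markers summed to at most 0.238 CPM in T.mu libraries at day 14, where S100a8, S100a9, Csf3r, Cxcr2, Mpo and Elane were at 0, and to 0 in control libraries. The 9 macrophage markers summed to 144 to 188 CPM with T.mu and 119 to 181 CPM in controls at day 14, and 0 of 9 were called on any day. The 7 epithelial markers summed to 8565 to 9988 CPM with T.mu and 6706 to 8592 CPM in controls at day 14, where Krt8 was called higher (log2 0.66, adjusted p = 0.0196), and to 6501 to 10622 CPM with T.mu and 7675 to 9563 CPM in controls at day 48. The 3 plasma cell markers summed to 414 to 541 CPM with T.mu and 310 to 387 CPM in controls at day 14, with no overlap, and 0 of 3 were called. At day 48 the plasma cell gene Jchain was higher (0.90, adjusted p = 0.00346) and the adipocyte gene Cidec lower (-1.23, adjusted p = 0.00728). In epithelium at day 3 the epithelial markers summed to 6329 to 9736 CPM with T.mu and 3696 to 5782 CPM in controls. At day 14 they summed to 8011 to 10288 CPM with T.mu and 5033 to 7002 CPM in controls. The arms did not overlap on these days but did at day 48. The part of the make-up of the samples in the members' values was not tested.

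The label of the epithelial preparation was read against markers of other cells, with mixed values. All 5 fibroblast and all 4 smooth muscle markers were lower in control epithelium than in control tissue (Dcn log2 -6.57, Tagln -7.94), as were 6 of 9 macrophage markers, with Lyz2 at -6.27, while Cd14, named after its value was seen, was higher (0.87). The 8 T and innate lymphoid markers summed to 57.9 to 79.6 CPM in control epithelium and 55.7 to 82.0 CPM in control tissue at day 14, although Thy1 was lower in control epithelium (log2 -5.04, adjusted p = 1.24e-06, edgeR). The 7 neutrophil markers summed to 3.70 to 10.3 CPM in control epithelium and 0.773 to 2.29 CPM in control tissue at day 48, and 0 of 7 could be tested. Of the 7 epithelial markers, 4 were lower in the epithelial cells, with Epcam at -1.69 and Vil1 at -1.48, and 1, Krt18, named after its value was seen, was higher (0.54).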

How the data were processed

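RNA from colonic epithelial cells and total colonic tissue was made into 3′ digital gene expression libraries, per the labels' protocols. The authors deposited 1 table of raw read counts per Ensembl gene, with 1 column per library. STAR and Subread are named in the submitters' processing notes. Versions, roles, genome build, annotation, strand and molecular identifiers are not stated in the sources used here. Of small counts (20 or below), 61.2% to 87.2% were even in each library, so 1 molecule may have been counted more than once. The counting intervals (95%) and floors (3 counts) take each count as independent. If molecules were counted more than once, the intervals are too narrow and the floors too low. Neither covers the spread between libraries.

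Symbols came from a GENCODE M21 (GRCm38) annotation, which held 45143 of the 45792 IDs. The non-mouse entry, 0.389% of all counts, entered neither library sizes nor tests. Genes were filtered with edgeR 4.0.16 (R 4.3.3; minimum count 10, minimum total 15), scaled by TMM and tested with robust quasi-likelihood fits, 1 per tissue over 20 libraries and 6 groups, and 1 over all 40 libraries for comparisons between tissues. The standard error is the log2 fold change over the square root of F, and p-values were adjusted by Benjamini-Hochberg over all genes tested, at 0.05. DESeq2 1.42.0 and limma 3.58.1 (voom) were alternatives, beside RLE scaling, no filter, halved counts, non-robust fits, each library left out, libraries under 400000 counts left out and each day left out.

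The library numbers in the labels, read as litters, pair T.mu and control libraries, and tissues. Litter pairs and the litter block rest on this reading. Deviations from group means correlated by -0.08 to 0.19 between T.mu and control epithelium and by -0.10 to 0.16 in total tissue of the same litter number, and 4 of 10 and 3 of 10 T.mu libraries correlated best with their own number. Libraries of a group differed beyond counting noise in each group. The design names different mice per group. The p-values measure the spread between these libraries.

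The 8 genes, the pathway and marker lists and the tests were chosen with earlier results of these data known. All 8 are named, and up to 4 genes per list and comparison with the smallest adjusted p under 0.05. The 3 genes most like a member were taken by Pearson correlation of log2 CPM (prior count 2) over the 20 libraries of the tissue with the higher control mean.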

Additional observations from a re-analysis of the deposited data

Results flagged for a closer look

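Within groups of 4 libraries, all of them at day 48, the gap between an extreme library and its neighbour was set against the range of the group. In 8 of 32 groups it exceeded the 95% critical value of Dixon's test for 4 values, which independent normal values exceed about 1 time in 20. Saa2 in T.mu tissue and Lcn2 in T.mu epithelium held 0 in 3 of 4 libraries, which fixes the ratio at 1. The same library also recurs across members, so 8 of 32 cannot be read as an excess over that rate.

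In T.mu total tissue, replicate 2 stood apart for Duox2 (573 CPM against 146 to 212 CPM in the other 3, ratio 0.846), for Saa1 (1129 CPM against 242 to 334 CPM, ratio 0.896) and for Saa2 (10.8 CPM against 0 in the others, ratio 1). In control total tissue, replicate 4 stood apart for Nos2 (22.1 CPM against 0 to 2.78 CPM, ratio 0.874) and replicate 2 for Nfkbiz (128 CPM against 96.8 to 101 CPM, ratio 0.880). In T.mu epithelium, replicate 4 held the only Lcn2 counts of its group, 2 in number (1.95 CPM, ratio 1). In control epithelium, replicate 1 stood apart for Saa2 (3.40 CPM against 1.85 to 1.88 CPM, ratio 0.982), which rests on 5 counts, and replicate 2 for Nfkbiz (62.0 CPM against 47.4 to 49.6 CPM, ratio 0.844).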

How the results depend on the processing

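The number of members called was 1 in epithelium over the days and fell to 0 without day 3; DESeq2 gave no adjusted p for Duoxa2 there. In total tissue at day 14 (2 called) it was 1 with RLE scaling, with halved counts or with a fit on the libraries of the comparison alone (Saa3 each time), 4 with DESeq2 (Duox2 and Duoxa2 added), 0 without libraries under 400000 counts and 0 with limma voom; a non-robust fit called Duox2, Duoxa2 and Saa3 but not Nfkbiz (adjusted p = 0.0641). At day 48 (1 called) it was 0 with no filter, 0 without those libraries, 4 with DESeq2 and 3 with a non-robust fit (Duox2, Duoxa2 and Saa1), and with limma voom it was 1, Duox2 (0.0421) in place of Nfkbiz (0.150). Over the days (2 called) it was 5 with DESeq2, 5 with a non-robust fit and 1 with limma voom (Duoxa2), and it was 4, 0 and 1 without day 3, day 14 and day 48. Duoxa2 also passed over the days with RLE scaling (edgeR adjusted p = 0.0475) and with halved counts (0.0415). Leaving out days was chosen after seeing the data. With 1 library left out the number ran from 0 to 2 at day 14, from 0 to 1 at day 48, from 2 to 3 over the days and from 3 to 4 between control tissues. Where not given otherwise, the cause was not tested.

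Litter as a block changed the call of Duoxa2 over the days in total tissue (adjusted p = 0.0173), of Duox2 and Nos2 between tissues (2 members called) and of Nos2 between control tissues, and no other call of a member. Both Nos2 calls rest in part on control tissue of day 14, at 0 counts in all 3 libraries. The log2 values that changed sign lie near 0 or rest on few counts. Duox2 at day 3 in epithelium (0.03) was -0.0205 with RLE scaling, -0.0195 with DESeq2, -0.0948 with limma voom, -0.0566 with halved counts, -0.268 without shallow libraries and -0.0562 in a fit of that comparison alone. Saa1 at day 3 in epithelium (0.0047) was -0.0382 with RLE scaling, -0.0286 with DESeq2, -0.0809 with halved counts, -0.778 without shallow libraries and -0.0744 alone, and over the days 0.0301 without day 14. Saa2 at day 3 in total tissue (-0.08) was 0.0285 with DESeq2 and 0.469 with limma voom. Between control tissues Duox2 (0.12) was -0.116 with no filter and -0.127 without day 14, and Nos2 (1.79) was -0.0566 without day 14. Saa2 there (-0.19) was 0.0457 with RLE scaling, 0.0972 with DESeq2, 0.659 with limma voom, 0.0681 with the block, 0.515 without shallow libraries and 0.561 without day 3.

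With 1 library left out, Duox2 ran from -0.113 to 0.324 at day 3 and from -0.00909 to 0.346 at day 14 in epithelium, and from -0.0122 to 0.264 between control tissues. Saa1 in epithelium ran from -0.256 to 0.621 at day 3, from -0.137 to 0.243 at day 48 and from -0.125 to 0.171 over the days, and in total tissue at day 3 from -0.462 to 0.124. Nfkbiz at day 3 ran from -0.169 to 0.480 in epithelium and from -0.0636 to 0.290 in total tissue. Saa2 in total tissue ran from -0.526 to 1.72 at day 3, from -5.44 to 1.25 at day 48 and from -1.02 to 1.54 over the days, and from -1.39 to 0.379 between control tissues.

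Among all genes the alternatives called 27 to 185 at day 14 (111 in the fit reported), 99 to 364 at day 48 (210) and 123 to 323 over the days (222) in total tissue, and 75 to 445 over the days (343), 5 to 48 at day 3 (36) and 45 to 261 at day 14 (51) in epithelium. They called 47 to 103 at day 3 in total tissue (56), 4 to 94 for a difference between days there (8), and 0 to 11 (4), 0 to 42 (0), 4 to 54 (4) and 39 to 238 (89) for a difference between tissues at day 3, 14, 48 and over the days. Depth limits Saa2, Lcn2 and Nos2 throughout and Saa3 in epithelium.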
